A study of Mus musculus with 6 samples.

Results

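A set of 10 genes that sense or relay mechanical force were followed in chondrocytes with and without periostin. They are the ion channel genes Piezo1, Piezo2 and Trpv4, the Hippo pathway genes Lats2 and Amotl2, the coactivator gene Yap1, its DNA-binding partners Tead1, Tead2 and Tead3, and the target gene Ankrd1. The 10 genes were taken by symbol from the 41388 genes counted in every library, and all 10 were among the 14533 genes with enough reads to be tested. The RNA-seq libraries came from chondrocytes of femoral head cartilage, isolated enzymatically from 21-day-old male mice and cultured for 2 days with no treatment. There were 3 libraries from Postn-/- mice, which carry the constitutive Postn tm1Jmol null allele in every tissue, and 3 from wild-type (wt) mice, with both genotypes on the B6/129 strain. Periostin is a matricellular protein of collagen-rich connective tissue, and the comparison asked how its loss altered the baseline transcripts of articular chondrocytes. The labels number the replicates without naming the animal behind each, so p-values measure the spread between these libraries.

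PIEZO1, PIEZO2 and TRPV4 are cation channels through which chondrocytes take up calcium when they are compressed or their osmotic surroundings change. In the Hippo pathway, the MST and LATS kinases phosphorylate the coactivators YAP and TAZ, which are then held in the cytoplasm, while angiomotin-family scaffolds such as AMOTL2 bind YAP and LATS at junctions and on actin. Unphosphorylated YAP enters the nucleus and acts through TEAD proteins on target genes, among them Ankrd1, Ccn1, Ccn2 and the feedback genes Lats2 and Amotl2, and a stiff or spread cell is known for more of this activity than a soft or rounded one. Activity of the channels and of YAP is set largely at the protein level, which transcript counts do not measure.

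The core of the TEAD binding motif is GGAATG, or CATTCC on the other strand. It was looked for on both strands in the 250 bases before each annotated RefSeq start on GRCm38.p6, and the 30 bases around each match are shown so that the 6-base core, which TEAD proteins recognise, can be seen with its flanks. Of the 8 genes of the 10 with such a window, Yap1, Tead3, Amotl2 and Ankrd1 held the motif, against 14.4% of all 27025 genes with a window. Each sequence reads 5′ to 3′ on the strand of its gene, and the capitals mark the motif. Tead3 has several annotated starts, and the 30-base stretches of its first pair of matches overlap, while the motifs themselves do not.
Ankrd1, chr19:36119950-36119979, minus strand: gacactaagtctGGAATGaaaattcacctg
Ankrd1, chr19:36120037-36120066, minus strand: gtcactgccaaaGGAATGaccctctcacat
Amotl2, chr9:102717727-102717756, plus strand: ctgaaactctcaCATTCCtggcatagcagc
Yap1, chr9:8004720-8004749, minus strand: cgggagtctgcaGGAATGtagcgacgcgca
Tead3, chr17:28350697-28350726, minus strand: gctcattccgtaCATTCCggccatccccct
Tead3, chr17:28350706-28350735, minus strand: tccggccgggctCATTCCgtacattccggc
Tead3, chr17:28350970-28350999, minus strand: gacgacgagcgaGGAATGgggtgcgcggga
Of the 12 other YAP-TEAD target genes with a window, 4 held the motif, one of them Ccn1, which encodes a secreted matricellular protein.
Ccn1, chr3:145650071-145650100, minus strand: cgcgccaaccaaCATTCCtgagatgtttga
A match is a string of letters and not a measured binding site, and the windows of Piezo1, Trpv4, Tead2 and Lats2 held none. Of the other channel genes with a window, Trpv2, Tmem63c, Kcnk2, Kcnk4, Kcnk10 and Pkd2 held the motif too. Trpc1, Trpc6, Trpm7, Tmem63a, Tmem63b and Pkd1 did not. Among the cofactors with a window, Wwtr1, Vgll3 and Vgll4 held it and Vgll2 did not. Of the other Hippo genes, Ajuba, Mob1a, Ptpn14, Sav1 and Wwc2 held it, and the rest with a window, such as Lats1, did not. The motif was thus not particular to the 10 genes or the targets.

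Library totals ran from 20587640 to 26572260 counts. Scaled by these totals alone, 3 reads in a library corresponded to 0.1129 to 0.1457 CPM (counts scaled to a library of fixed size). Postn itself had 4.66, 4.27 and 5.67 CPM in the Postn-/- libraries, against 10.1, 10.3 and 6.90 CPM in wt. Every Postn-/- library lay below every wt library, and reads remained in the null. For the protein, the paper reports that joint sections of Postn-/- mice did not stain and that their serum held negligible amounts. Those measurements were not made on these cultures. Postn had a log2 fold change of -0.91 (SE 0.22, unadjusted p = 0.00362, adjusted p = 0.717, edgeR), so the targeted gene itself did not pass the adjusted threshold, and its adjusted p was 0.191 to 0.983 over the alternatives. The 9 chondrocyte markers summed to 34749 to 46263 CPM in Postn-/- and 29390 to 42431 CPM in wt, and the 2 red cell markers to at most 0.0905 CPM in any library. Of the chondrocyte markers, Col2a1 was higher in every Postn-/- library (13696 to 18081 against 8271 to 11867 CPM, unadjusted p = 0.0125, edgeR) and Cnmd lower in every one (3542 to 4702 against 4968 to 5781 CPM, unadjusted p = 0.132). The 4 leukocyte markers summed to 21.3 to 31.2 CPM against 9.68 to 22.8 CPM, the 5 endothelial markers to 6.19 to 10.2 against 4.65 to 9.20 CPM, and the 8 fibroblast markers to 2152 to 4444 against 2806 to 5270 CPM. The 6 muscle and pericyte markers summed to 62.8 to 123 against 75.9 to 167 CPM, with Acta1 lower in every Postn-/- library (unadjusted p = 0.0152, edgeR) and Rgs5 fitted higher with overlap (unadjusted p = 0.0347), and the 4 nerve markers to 9.76 to 12.0 against 10.7 to 14.3 CPM. The part of these markers in the results was not tested. By Euclidean distance between log2 CPM values over all tested genes, wt replicate 1 stood farthest from the others (mean distance 69.0 against 55.5 to 62.4).

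The 10 genes spanned a wide range of levels in both genotypes. Set per kilobase of transcript (RPKM, CPM divided by the exon length, with TMM scaling, mean over 6 libraries), Trpv4 was far above the rest at 157 ± 18.6 (SD) RPKM, a level higher than 97.3% of the tested genes. Amotl2 followed at 12.8 ± 1.93 RPKM, then Lats2 at 4.78 ± 0.446 and Piezo1 at 4.49 ± 0.737 RPKM. The ranges of Lats2 and Piezo1 over the libraries overlapped, so their order was not resolved. Yap1 lay at 2.85 ± 0.147 RPKM and Tead1 at 1.88 ± 0.244 RPKM, each below the lowest value of the gene above it. Ankrd1 at 0.912 ± 0.427, Tead2 at 0.736 ± 0.189 and Piezo2 at 0.719 ± 0.104 RPKM overlapped in turn. Tead3 was lowest at 0.301 ± 0.0534 RPKM, above only 7.04% of the tested genes, and rested on 23 to 37 reads in a library.

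**Figure D1:**
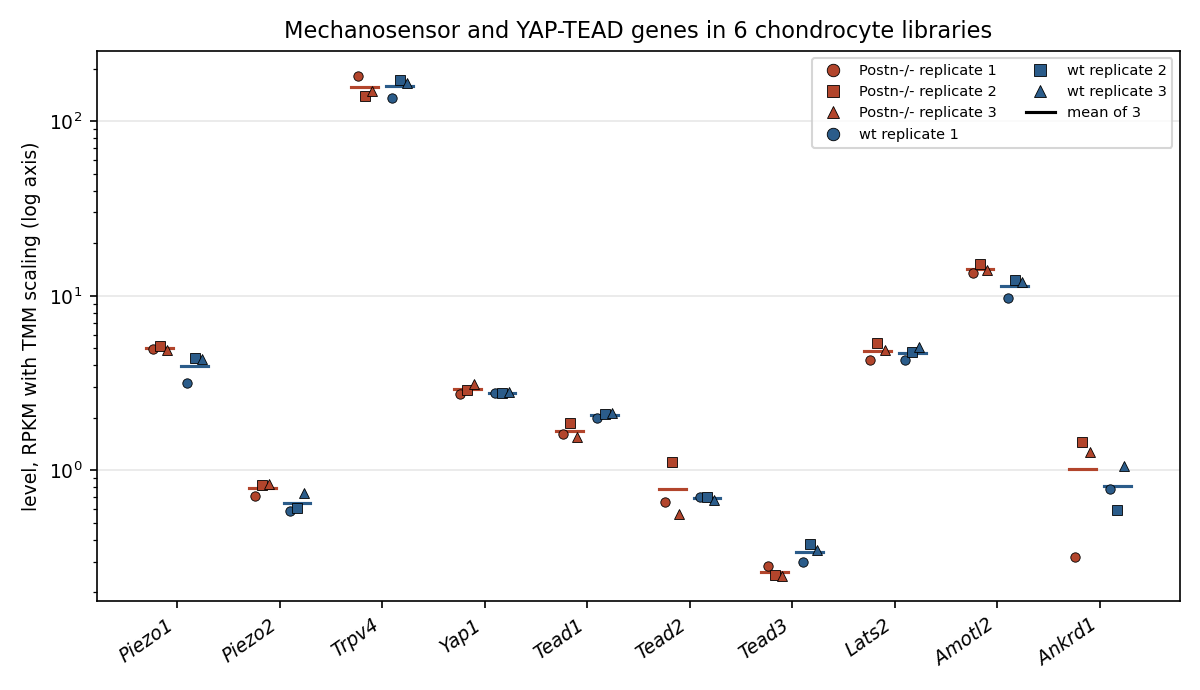
Level of each of the 10 genes (RPKM with TMM scaling, log axis) in the 3 Postn-/- libraries (red) and the 3 wt libraries (blue), with 1 point per library and a line at the mean of 3. Trpv4 sits at 136 to 182 RPKM in every library, Piezo1 and Amotl2 are higher and Tead1 and Tead3 lower in all Postn-/- libraries than in all wt libraries, and Ankrd1 and Tead2 spread most within Postn-/-.

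Between the genotypes, differences in the 10 genes were small, and none passed the test over all genes. Adjusted over all tested genes by the Benjamini-Hochberg method, the quasi-likelihood test of edgeR called 0 of the 10 genes at a threshold of 0.05, beside 2 of the 14533 tested genes (0.0138%). DESeq2's Wald test and voomWithQualityWeights also called 0 of the 10. Before adjustment and at the same threshold, edgeR found 2 of the 10 higher in Postn-/-, Piezo1 and Amotl2, beside 3.95% of all tested genes. It found 1 lower, Tead1, beside 2.35%. The genotypes did not overlap for 2 genes higher in Postn-/-, again Piezo1 and Amotl2, beside 7.03% of all genes, and for 2 lower, Tead1 and Tead3, beside 6.57%. With 10 genes these counts differ from the background by 1 or 2 genes. The median log2 fold change over the 10 genes (Postn-/- over wt) was 0.12, with 7 fitted higher and 3 lower, and that over all tested genes was 0.00. Without Postn-/- replicate 2 the median of the 10 was 0.01.

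Piezo1 encodes the large stretch-activated channel that chondrocytes are known to use at high strain. It was counted at 49.3, 51.5 and 48.8 CPM in the Postn-/- libraries and at 31.3, 43.5 and 43.2 CPM in the wt libraries. All Postn-/- libraries were higher than all wt libraries, and the lowest value was in wt replicate 1. The log2 fold change was 0.34 (SE 0.14, 95% interval 0.01 to 0.67, unadjusted p = 0.0428, adjusted p = 0.717, edgeR), or 1.01- to 1.59-fold. Without wt replicate 1 it was 0.20 (unadjusted p = 0.0793, edgeR), and with all libraries the unadjusted p was 0.0553 in DESeq2 and 0.0514 in voomWithQualityWeights. Under the other omissions of 1 library the log2 fold change stayed between 0.32 and 0.42, with unadjusted p of 0.0814, 0.0988 and 0.0787 without Postn-/- replicates 1, 2 and 3, so that 2 of the 6 omissions kept it under 0.05. Exons of Ctu2, a tRNA modification gene on the opposite strand, cover 24.6% of the exon bases of Piezo1 (chromosome 8, 122481698 to 122551329, minus strand, GRCm38). Ctu2 was at 12.3, 13.1 and 13.6 CPM in Postn-/- and 8.46, 11.8 and 10.4 CPM in wt, so it too was higher in all Postn-/- libraries. Its part in the counts of Piezo1 was not tested.

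Piezo2, known as the touch channel of sensory neurons and also present in cartilage, was at 10.4, 12.1 and 12.1 CPM in Postn-/- and 8.57, 8.87 and 10.8 CPM in wt. Its genotypes overlapped through the highest wt and the lowest Postn-/- library. Its log2 fold change was 0.29 (SE 0.16, 95% interval -0.09 to 0.67, unadjusted p = 0.113, edgeR). Piezo1 made up 86.4% ± 0.983 (SD) of the summed Piezo RPKM in the 3 Postn-/- libraries and 85.8% ± 1.80 in the 3 wt libraries, which overlapped (difference 0.584 percentage points, exact two-sided permutation p = 0.7). Without wt replicate 1 this difference was -0.196, and without wt replicate 2 it was 1.57 percentage points.

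Trpv4, the osmosensitive channel that is a marker of the chondrocyte lineage, did not separate the genotypes. Its levels were 741, 570 and 608 CPM in the Postn-/- libraries and 553, 704 and 673 CPM in the wt libraries. The highest library was Postn-/- and the lowest wt, and of the other four the wt libraries lay above the Postn-/- libraries. Its log2 fold change was -0.01 (SE 0.15, unadjusted p = 0.957, edgeR), and its 95% interval of -0.36 to 0.34 leaves room for a change of 0.782- to 1.26-fold.

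Of 12 other mechanosensitive channel genes, 8 were tested, and Pkd2 alone was under 0.05 before adjustment (higher, beside 3.95% of all tested genes). Pkd2, which encodes the cilium channel polycystin-2, was at 28.9, 29.1 and 30.2 CPM in Postn-/- and 24.3, 21.8 and 24.5 CPM in wt. It was higher in all Postn-/- libraries, with a log2 fold change of 0.32 (SE 0.11, unadjusted p = 0.0185, adjusted p = 0.717, edgeR). The unadjusted p was 0.066 without Postn-/- replicate 3, 0.0547 without wt replicate 2 and 0.0731 with no filter on low counts. Trpc1, named after its values were seen, also did not overlap, which makes 2 of 8 higher beside 7.03% of all tested genes, at 2.85 to 3.15 CPM in Postn-/- and 2.53 to 2.65 CPM in wt (unadjusted p = 0.307, edgeR). The highest of these channels per kilobase were Tmem63a, an osmosensitive channel, with a mean of 20.5 RPKM and a log2 fold change of -0.06 (edgeR, unadjusted p = 0.813), Trpm7, a channel kinase, at 9.65 RPKM and -0.13 (edgeR, unadjusted p = 0.332), and Kcnk2, a stretch-activated potassium channel, at 7.88 RPKM and -0.25 (edgeR, unadjusted p = 0.25). Without wt replicate 1 Kcnk2 was at -0.07, and without Postn-/- replicate 2 at -0.44 (edgeR, unadjusted p = 0.0512). The median log2 fold change of the 8 channels was 0.02.

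Amotl2 had the smallest unadjusted p of the 10 genes. It was at 85.2, 95.6 and 88.9 CPM in the Postn-/- libraries and 61.1, 77.1 and 75.5 CPM in the wt libraries. All Postn-/- libraries were higher, and the lowest value again belonged to wt replicate 1. The log2 fold change was 0.34 (SE 0.12, 95% interval 0.06 to 0.61, unadjusted p = 0.0236, adjusted p = 0.717, edgeR), or 1.04- to 1.53-fold. Without wt replicate 1 it was 0.24 (unadjusted p = 0.0593), and over the omission of each library in turn it ran from 0.24 to 0.40. The unadjusted p was also over 0.05 without Postn-/- replicate 2 (0.0741) and Postn-/- replicate 3 (0.053). Its relative Amotl1, at 197, 216 and 197 CPM in Postn-/- and 255, 223 and 210 CPM in wt, had a log2 fold change of -0.17 (unadjusted p = 0.16, edgeR).

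Within the angiomotin family, Amotl2 made up 39.7%, 39.8% and 40.5% of the summed RPKM of Amot, Amotl1 and Amotl2 in Postn-/- and 26.7%, 34.3% and 35.2% in wt. Every Postn-/- share was above every wt share, by 7.92 percentage points on average and by 5.25 without wt replicate 1. This share and its omissions of a library were added after the data were seen. The exact two-sided permutation p was 0.1, the smallest that 3 libraries against 3 allow, and 0.267 after Benjamini-Hochberg adjustment over the 8 shares computed.

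Lats2, a kinase that phosphorylates YAP, was at 31.1, 39.2 and 35.8 CPM in Postn-/- and 31.3, 34.8 and 37.3 CPM in wt. The wt libraries lay inside the range of the Postn-/- libraries. Its log2 fold change was 0.04 (SE 0.13, 95% interval -0.26 to 0.34, unadjusted p = 0.769, edgeR). Lats2 made up 56.9% ± 2.39 of the summed Lats1 and Lats2 RPKM in Postn-/- and 58.8% ± 5.85 in wt (exact permutation p = 0.7). Its locus (chromosome 14, 57642077 to 57758388, minus strand) shares 41.2% of its 50-base words with Gm49361 in the later GENCODE M21 annotation.

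Of 21 other Hippo kinases and regulators, all were tested. In edgeR 0 were under 0.05 before adjustment, beside 3.95% of all tested genes higher and 2.35% lower, and 0 were without overlap, beside 7.03% higher and 6.57% lower. Of them 14 were fitted higher and 7 lower in Postn-/-, with a median log2 fold change of 0.07. Beside Amotl1, the highest per kilobase were Mob1a, a LATS cofactor, with 19.3 RPKM, and Stk3, the kinase MST2, with 15.8 RPKM. Mob1a had a log2 fold change of 0.16 (edgeR, unadjusted p = 0.188) and Stk3 one of 0.05 (edgeR, unadjusted p = 0.634).

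Yap1 was among the most even of the 10 genes. Its values were 25.4, 26.7 and 29.0 CPM in Postn-/- and 25.5, 25.7 and 25.9 CPM in wt. The wt libraries lay inside the span of the Postn-/- libraries. A log2 fold change of 0.07 (SE 0.11, unadjusted p = 0.532, edgeR) was fitted, with a 95% interval of -0.18 to 0.32 or 0.883- to 1.25-fold. Wwtr1, which encodes the YAP paralog TAZ, was at 72.0, 68.4 and 67.4 CPM in Postn-/- and 46.9, 81.1 and 58.5 CPM in wt. Wwtr1 lies 3.06 Mb from Postn on chromosome 3, and the part of this position in its level was not tested. It spread widely within wt, and its log2 fold change of 0.16 (unadjusted p = 0.426, edgeR) became -0.01 without wt replicate 1 and 0.40 (unadjusted p = 0.0187) without wt replicate 2. Per kilobase Yap1 was the lesser of the pair in both genotypes, at 16.8% ± 1.39 of their sum in Postn-/- and 18.2% ± 3.96 in wt (exact permutation p = 0.6).

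Tead1 was lower in the Postn-/- libraries. TEAD proteins bind DNA but activate little without a coactivator, and Tead1 was the TEAD gene with the highest mean level here. Its values were 18.1, 20.9 and 17.5 CPM in Postn-/-, against 22.4, 23.6 and 23.9 CPM in wt. The genotypes did not overlap, and the wt mean of 23.3 CPM had an SD of 0.814 against 18.8 ± 1.81 CPM in Postn-/-. The log2 fold change was -0.31 (SE 0.12, 95% interval -0.59 to -0.02, unadjusted p = 0.0372, adjusted p = 0.717, edgeR), or 0.665- to 0.984-fold. Without wt replicate 1 it was -0.33, and over the omission of each library in turn it ran from -0.39 to -0.26 with unadjusted p from 0.0229 to 0.119. The summed CPM of 5 proliferation markers was 196, 338 and 145 in Postn-/- and 501, 294 and 298 in wt, with overlap. All 5 were fitted lower in Postn-/- (median log2 fold change -0.63), with Ccnb1 at -0.75 (unadjusted p = 0.0467, edgeR), and their part in the difference was not tested.

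Tead2 was at 3.09, 5.17 and 2.62 CPM in Postn-/- and 3.27, 3.30 and 3.16 CPM in wt. The wt libraries nearly coincided, and the Postn-/- libraries lay on both sides of them. Its log2 fold change of 0.16 (SE 0.28, unadjusted p = 0.582, edgeR) turned to -0.18 without Postn-/- replicate 2. Tead3 was at 1.25, 1.10 and 1.10 CPM in Postn-/- and 1.31, 1.67 and 1.53 CPM in wt. The genotypes did not overlap, but the reads behind these values were 31, 27 and 23 against 34, 37 and 32. Its log2 fold change was -0.39 (SE 0.25, 95% interval -0.96 to 0.19, unadjusted p = 0.158, edgeR), and at this depth no difference was resolved.

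The 4 TEAD paralogs were also compared as shares of their sum. Tead4, the remaining paralog, was at 5.55, 5.90 and 5.91 CPM in Postn-/- and 5.15, 4.57 and 5.46 CPM in wt, with a log2 fold change of 0.19 (unadjusted p = 0.305, edgeR). Tead1 made up 39.3%, 38.3% and 38.9% of the summed RPKM of Tead1 to Tead4 in Postn-/- and 45.0%, 47.1% and 45.5% in wt. The share was 7.08 percentage points lower in Postn-/-, against an SD of 0.486 within Postn-/- and 1.09 within wt (exact two-sided permutation p = 0.1, adjusted 0.267 over the 8 shares). Tead4 held 37.4% ± 3.59 in Postn-/- and 31.1% ± 2.29 in wt, and was higher in every Postn-/- library (exact permutation p = 0.1). Tead2 held 17.6% ± 4.58 against 15.4% ± 0.780 and Tead3 6.09% ± 0.892 against 7.57% ± 0.910, with overlap in both. The shares sum to the whole, so where one share is lower the others together are higher.

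**Figure D2:**
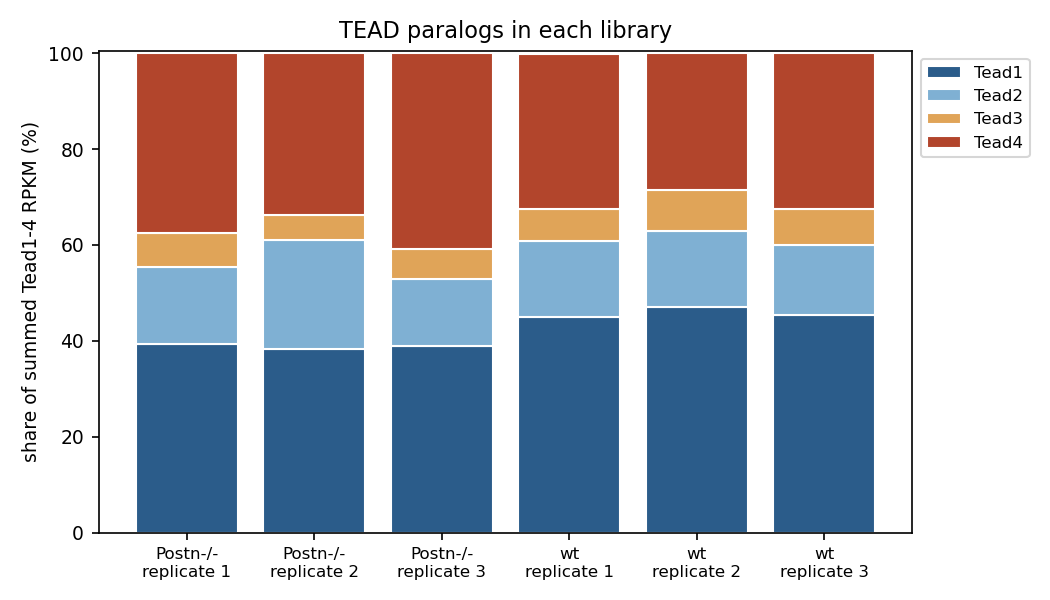
Share of Tead1, Tead2, Tead3 and Tead4 in their summed RPKM (percent, stacked bars, 1 bar per library). The bottom segment, Tead1, ends between 38.3% and 39.3% in the Postn-/- libraries and between 45.0% and 47.1% in the wt libraries, and Tead4 is the top segment.

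Among the other coactivators and TEAD cofactors, 4 of 5 were tested (Vgll2 was not). In edgeR 0 were under 0.05 before adjustment (3.95% and 2.35% of all tested genes), 1 of the 4 was without overlap (Tead4, higher, beside 7.03%), and the median log2 fold change was 0.10. Vgll4, which competes with YAP for TEAD, had the highest mean level per kilobase of these (20.8 RPKM) and a log2 fold change of -0.16 (unadjusted p = 0.285). Vgll3 varied from 1.57 to 11.7 CPM within Postn-/- and from 2.81 to 10.3 CPM within wt, and its log2 fold change of 0.05 had an SE of 0.68.

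Ankrd1 encodes a muscle and stretch-response protein and is a standard readout of YAP-TEAD activity. Its levels were 0.563, 2.56 and 2.24 CPM in Postn-/- and 1.38, 1.04 and 1.87 CPM in wt, from 14, 63 and 47 against 36, 23 and 39 reads. The lowest and the highest library were both Postn-/-. A log2 fold change of 0.32 (SE 0.52, unadjusted p = 0.557, edgeR) was fitted, and the 95% interval of -0.88 to 1.52 covers 0.543- to 2.86-fold, so these libraries do not resolve a change of that size in either direction. It was -0.05 without Postn-/- replicate 2 and 0.75 (unadjusted p = 0.053, edgeR) without Postn-/- replicate 1.

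Of 19 other target genes of YAP and TEAD, 17 were tested, with 0 under 0.05 before adjustment in edgeR (3.95% of all tested genes higher, 2.35% lower) and 0 without overlap (7.03% and 6.57%). Of the 17 genes 10 were fitted higher and 7 lower, with a median log2 fold change of 0.15. Ccn2, a matricellular growth factor of cartilage, was at 1483, 1779 and 1246 CPM in Postn-/- and 1220, 1128 and 1281 CPM in wt, with a log2 fold change of 0.31 (SE 0.16, unadjusted p = 0.0842, edgeR). It was 0.17 without Postn-/- replicate 2 and 0.43 (unadjusted p = 0.0318, edgeR) without Postn-/- replicate 3. An antisense gene, Gm15270, overlaps 23.2% of its exon bases. Ccdc80, a matrix protein gene with the highest mean level per kilobase of the list (983 RPKM), had a log2 fold change of -0.08 (unadjusted p = 0.681).

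**Figure D3:**
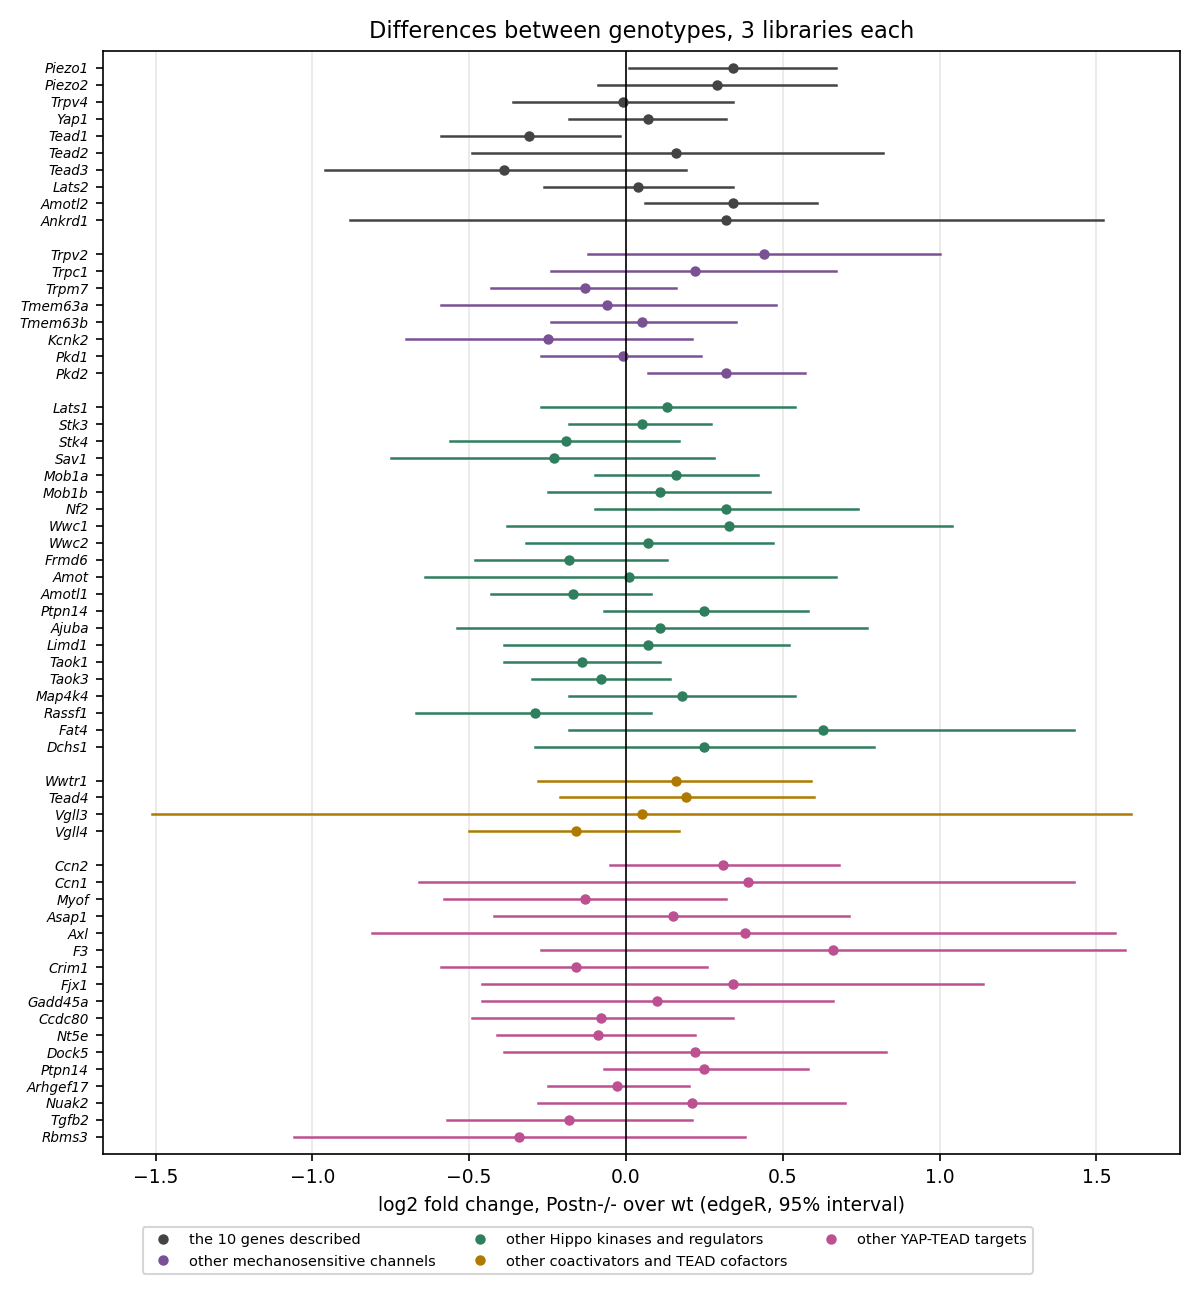
Log2 fold change (Postn-/- over wt, edgeR, points) with its 95% interval (lines) for the 10 genes and for the tested genes of 4 lists of other channel, Hippo, cofactor and target genes, 3 libraries per genotype. The intervals of Piezo1, Amotl2 and Pkd2 lie above 0 and that of Tead1 below it, before adjustment over all genes, while those of Ankrd1 and Vgll3 reach well to both sides.

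For 19 of the 20 tested targets described next, the range within Postn-/- exceeded the difference of the genotype means, as it did for 79.2% of all tested genes. Ccn1 was at 188, 833 and 561 CPM in Postn-/- and 344, 496 and 371 CPM in wt, so its lowest and highest values, like those of Ankrd1, belonged to Postn-/- replicates 1 and 2. Its log2 fold change of 0.39 (SE 0.45, unadjusted p = 0.419, edgeR) became 0.79 (unadjusted p = 0.0108) without Postn-/- replicate 1 and -0.11 without Postn-/- replicate 2. Lats2, Amotl2 and Ankrd1 together with the list of targets make 22 genes, of which 20 were tested. The highest value fell in Postn-/- replicates 1, 2 and 3 for 2, 10 and 2 of the 20 genes and in wt replicates 1, 2 and 3 for 2, 3 and 1. Lowest values fell in the Postn-/- libraries for 7, 3 and 3 genes and in the wt libraries for 2, 4 and 1. Over all tested genes, Postn-/- replicate 2 held 15.0% of the highest values and Postn-/- replicate 1 held 13.7% of the lowest. These counts were made after the values of Ankrd1 and Ccn1, which are among the 20 genes, had been seen, and they describe these libraries only.

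The medians restate the same values. On a log2 scale centred on each gene's mean over the 6 libraries, the median of the 20 genes was 0.26 in Postn-/- replicate 2, -0.08 in Postn-/- replicate 1 and 0.03 in Postn-/- replicate 3, and from -0.12 to -0.01 in the wt libraries. Over all tested genes these medians lay between -0.02 and 0.01. Among the Postn-/- libraries, replicate 2 also had the lowest sum of chondrocyte markers (34749 CPM, against 46263 and 44818) and the highest of proliferation markers (338 CPM, against 196 and 145). It was also highest for the fibroblast markers (4444 CPM, against 4103 and 2152) and the 4 osteoblast markers (718 CPM, against 576 and 440). In wt replicates 1, 2 and 3 the median of the 20 target genes was -0.04, -0.12 and -0.01. There the chondrocyte sums were 29390, 42431 and 36493 CPM and the proliferation sums 501, 294 and 298 CPM. The fibroblast sums were 3056, 5270 and 2806 CPM and the osteoblast sums 325, 1159 and 546 CPM. The part of these sums in the target levels was not tested. In bulk libraries such as these, fewer cells of a type and less RNA per cell cannot be told apart.

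**Figure D4:**
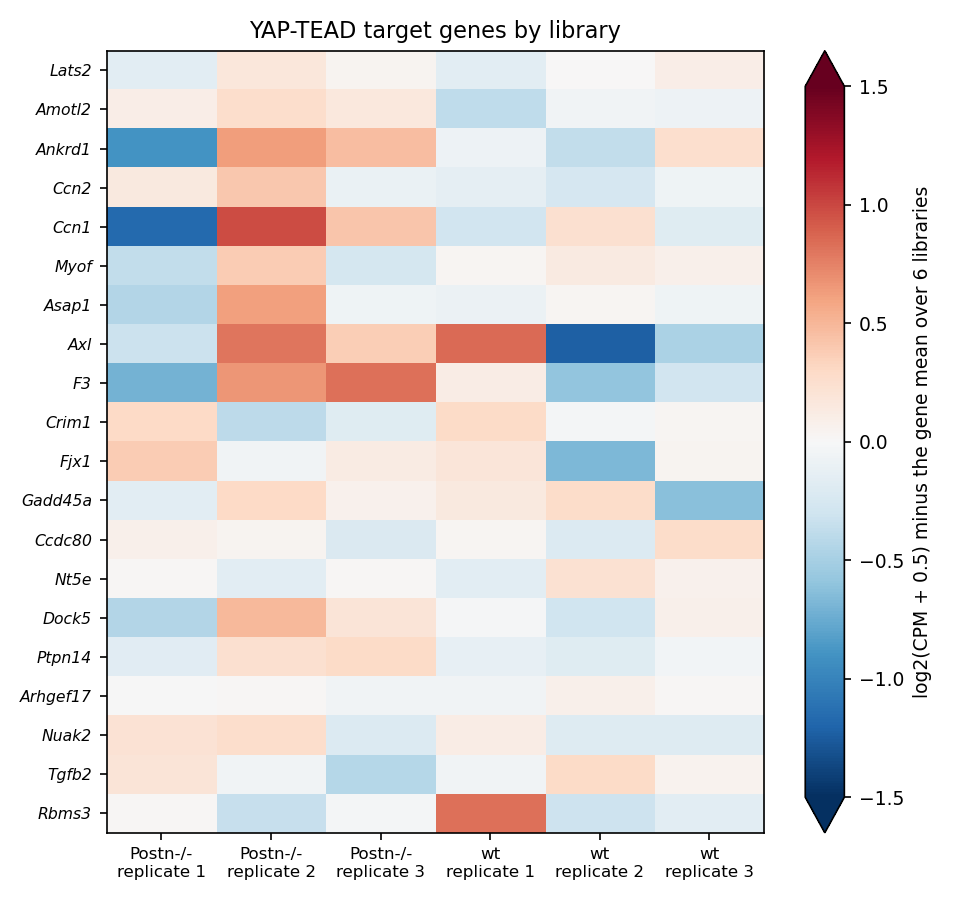
Level of the 20 tested YAP-TEAD target genes in each library, as log2(CPM + 0.5) minus the gene's mean over the 6 libraries (color scale from -1.5 to 1.5). Postn-/- replicate 2 is the library with the most genes at their highest value (10 of 20) and Postn-/- replicate 1 that with the most at their lowest (7 of 20).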

How the data were processed

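RNA was sequenced as 50-base single ends from 3 Postn-/- and 3 wt chondrocyte cultures. The authors aligned reads with STAR 2.0.4b to Ensembl release 76 and deposited raw counts of uniquely aligned, unambiguous reads from featureCounts 1.4.5. The deposited CPM (counts over the library's total) and RPKM (per kilobase of exon) were only checked against the counts. The labels name mm9, but the files' coordinates are those of GRCm38: of the 41388 identifiers 97.5% matched GENCODE M21, and 76.1% of these had the same start and end. The strand setting and sequencing batches are not given in the sources used here. No pair of libraries agreed within sampling noise (chi-square per degree of freedom 31.5 or more over 15 pairs).

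Genes above 1 CPM in at least 2 samples were kept, 355 rRNA genes were left out, and 14533 remained. Postn-/- was compared with wt by edgeR 4.0.16 (R 4.3.3) with TMM scaling, the quasi-likelihood test and Benjamini-Hochberg adjustment over all tested genes, without covariates. The script was tested on simulated data. CPM and RPKM in the text use TMM scaling, apart from the CPM given for 3 reads, which use the library totals alone. Shares were compared by exact permutation. Log2 levels by library used a pseudocount of 0.5 CPM.

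The 10 genes and all lists were chosen with earlier results of these data known. Named were the 10 genes, Postn and, from each list, genes with an unadjusted p of at most 0.05 and the 3 highest per kilobase. Tead4, Trpc1, Ctu2, the Amotl2 share, single cell type markers and the comparison of libraries within Postn-/- were added after values were seen. Alternatives were DESeq2 1.42.0, its size factors in edgeR, other filters, voomWithQualityWeights (limma 3.58.1) without and with 2 surrogate variables (sva 3.50.0), a replicate block and leaving out each sample. Promoter sequences were those of RefSeq.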

Additional observations from a re-analysis of the deposited data

How the results depend on the processing

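Under all 13 alternatives 0 of the 10 genes passed the adjusted threshold, and Piezo1, Piezo2, Yap1, Tead1, Tead3 and Amotl2 kept their direction. Before adjustment 3 of the 10 were under 0.05 in the report, and the number was 2 with DESeq2 and with voomWithQualityWeights, where Piezo1 was not under it, 1 with no filter on low counts (Amotl2, while Piezo1 and Tead1 were over it) and 0 to 2 when a library was left out. The median log2 fold change of the 10, 0.12, was 0.01 with voomWithQualityWeights and 0.01 to 0.20 when a library was left out. With voomWithQualityWeights Tead2 was at 0.03, Lats2 at -0.02, Ankrd1 at -0.00 and Vgll3 at -0.14, Ccn1 was at 0.21 (0.17 with surrogate variables), and with the filter in all 6 samples, which Ankrd1 did not pass, Trpv4 was at 0.00. When each library was left out in turn, the log2 fold change ran from -0.13 to 0.07 for Trpv4, -0.18 to 0.34 for Tead2, -0.04 to 0.12 for Lats2, -0.05 to 0.75 for Ankrd1, -0.01 to 0.40 for Wwtr1, -0.67 to 0.59 for Vgll3, -0.19 to 0.05 for Ccdc80, -0.11 to 0.79 for Ccn1, -0.28 to 0.15 for Tmem63a, -0.44 to -0.07 for Kcnk2, 0.17 to 0.43 for Ccn2, -0.29 to -0.09 for Vgll4, -0.23 to -0.09 for Amotl1, -0.23 to -0.06 for Trpm7, 0.11 to 0.25 for Mob1a, 0.00 to 0.08 for Stk3, 0.27 to 0.35 for Pkd2, 0.23 to 0.40 for Piezo2 and 0.01 to 0.12 for Yap1. The Tead1 share difference was -6.22 percentage points on CPM not divided by length. When a library was left out, the share difference ran from -0.196 to 1.57 points for Piezo1 and, tried after the data were seen, from 5.25 to 9.50 for Amotl2 and 4.57 to 8.15 for Tead4. Over all genes, 2 in the report, the adjusted calls were 11 with DESeq2, 9 with no filter, 0 with the filter in all 6 samples (806 at an unadjusted p of at most 0.05), 1 with voomWithQualityWeights and 1 to 2 when a library was left out. The unadjusted calls, 916 in the report, were 1797 with no filter, 1882 with surrogate variables and 429 to 1258 when a library was left out. Same-numbered libraries of the genotypes correlated at 0.082, 0.155 and 0.143 in their deviations from the group means, each best with its own number, and the labels give the number no meaning. With the replicate block edgeR made 1 adjusted call over all genes, 0 and 3 of the 10 genes had an adjusted and an unadjusted p of at most 0.05, Vgll3 was at -0.09, and Ankrd1 and Ccn1 were both at 0.17, against 0.32 and 0.39. The cause of these shifts was not tested. Tead3, Ankrd1 and Tead2 rested on the fewest reads of the 10 genes, 14 to 127 in a library, and the part of depth in their spread was not tested.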
